A study of Mus musculus with 7 samples.

Results

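A set of 9 genes that mark fibroblasts was followed: Pdgfra, Tcf21, Cd248, Ddr2, Thy1, Gas1, Meox1, Dpep1 and Fap, which are 9 of the 53460 genes of the deposited table. They were picked by symbol with their values in the TAC + EMPA and TAC groups already known, and Cd248 was picked for its small spread within each group. The contrast between the groups therefore chose them, and for these 9 genes it is described below with no p-value.

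RNA sequencing was performed on hearts of C57BL/6 mice (C57BL/6Ncr in the treatment notes, C57BL/6NCrSlc in the methods of the study), all of which had undergone transverse aortic constriction (TAC), in which a narrowed aorta loads the left ventricle with pressure. The TAC + EMPA group (n = 4 libraries) received empagliflozin, an inhibitor of the renal glucose transporter SGLT2, mixed into chow for 5 days, starting 2 weeks after TAC. The TAC group (n = 3 libraries) had the same operation without the drug, and no sham-operated heart was analysed here. The labels put the operation at 12 weeks of age and the age of the mice at 14 weeks, while the methods of the study put the operation at a younger age. The study describes its samples as biologically distinct, but the labels do not name the mouse behind each library.

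Fibroblasts lie between the muscle cells of the heart, lay down collagen and other matrix, and increase their matrix output under pressure overload. They are usually recognised by a set of transcription factors, receptors and surface proteins, none of which is fully specific. Cd248 and Thy1 are also made by perivascular cells, and a subset of other mesenchymal cells carries Pdgfra. In RNA from whole tissue, fewer fibroblasts and less RNA per fibroblast cannot be told apart.

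The values are FPKM, fragments mapped to a gene per unit of transcript length and of library size, which set genes of unequal length on one scale. All 9 genes had a mean FPKM of at least 1 over the 7 libraries, the minimum for the fit across genes, which left 12391 genes. Total fragments are unknown, but single-exon genes at low FPKM lie at whole multiples of 1 fragment, and these steps gave relative depths of 1.19 to 2.24 in TAC + EMPA libraries and 1 to 2.24 in TAC libraries. One library stood apart from its group: on the first principal component (46.8% of the variance), the TAC + EMPA libraries lay at 18.9 to 24.3, TAC replicates 1 and 2 at -45.7 and -56.0, and TAC replicate 3 at 16.1. The differences of the members and the medians of the main lists are accordingly also given without TAC replicate 3. Tnnt2, cardiac troponin T, a defining marker of heart muscle, was at 5434 FPKM or more in TAC + EMPA libraries and 5366 FPKM or more in TAC libraries. Myh6, a cardiac myosin heavy chain, was listed at 0 in TAC + EMPA replicate 1 and at 4213 to 8589 FPKM in the other 6 libraries, and since a 0 of so abundant a gene can be a failed estimate, it was not read as absence. The 8 T cell markers summed to 1.06 to 3.94 FPKM in TAC + EMPA libraries and 1.45 to 2.21 FPKM in TAC libraries.

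The sequences shown here are those of the genes on which the description turns. Cd248 (ENSMUSG00000056481) is a gene of 1 exon on the plus strand of GRCm38, chr19:5068078-5070682, and no other annotated gene overlaps it. Its transcript of 2605 bases holds 2298 coding bases, stop codon included, of which 61.5% are G or C. Its first 90 coding bases (chr19:5068126-5068215) follow, with the start codon in capitals:
Cd248: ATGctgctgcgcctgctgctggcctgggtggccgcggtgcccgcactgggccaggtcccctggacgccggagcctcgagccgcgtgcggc

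Tcf21 and Gas1 were the pair of members with the most alike profile over the libraries, and Pdgfra was the member with the smallest difference between the groups, so their promoters (RefSeq, GRCm38.p6, 250 bases before to 50 after the start) are shown. Capitals mark the E-box CANNTG, the motif of basic helix-loop-helix factors such as TCF21, which reads the same on both strands. CAGCTG, a form of it, was searched too.
Pdgfra, plus strand, chr5:75152001-75152300: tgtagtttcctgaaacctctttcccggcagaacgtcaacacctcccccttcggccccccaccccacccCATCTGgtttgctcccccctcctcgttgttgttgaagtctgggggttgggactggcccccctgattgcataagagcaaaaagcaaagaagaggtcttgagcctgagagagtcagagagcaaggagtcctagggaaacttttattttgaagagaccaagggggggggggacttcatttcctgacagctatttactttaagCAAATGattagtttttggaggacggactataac
Tcf21, minus strand, chr10:22820094-22820393: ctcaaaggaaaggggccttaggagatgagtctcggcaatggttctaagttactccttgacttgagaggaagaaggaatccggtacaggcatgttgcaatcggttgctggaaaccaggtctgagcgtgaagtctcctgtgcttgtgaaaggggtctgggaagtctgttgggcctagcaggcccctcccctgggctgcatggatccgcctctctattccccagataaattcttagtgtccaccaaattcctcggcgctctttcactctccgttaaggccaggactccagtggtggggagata
Gas1, minus strand, chr13:60177486-60177785: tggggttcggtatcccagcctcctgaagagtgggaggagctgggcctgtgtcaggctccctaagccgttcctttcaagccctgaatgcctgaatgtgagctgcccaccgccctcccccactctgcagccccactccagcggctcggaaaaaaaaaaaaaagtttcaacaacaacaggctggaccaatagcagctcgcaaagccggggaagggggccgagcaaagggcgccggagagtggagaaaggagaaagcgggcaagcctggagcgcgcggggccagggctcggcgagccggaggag
The Pdgfra window held 2 E-boxes, and the Tcf21 and Gas1 windows held 0, so they carry no capitals. Of 32851 RefSeq promoters of the same length, 72.3% held at least 1 CANNTG and 16.3% held CAGCTG. A promoter was at hand for 5 of the 9 genes, and RefSeq starts need not match the GENCODE starts given with each gene below.

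Cd248 encodes endosialin, a transmembrane protein with a C-type lectin domain that binds matrix proteins. It was the member with the largest difference between the groups. Its level was 3.49, 4.13, 3.20 and 3.67 FPKM in TAC + EMPA replicates 1 to 4, against 8.83, 6.56 and 8.10 FPKM in TAC replicates 1 to 3. Every TAC + EMPA library lay below every TAC library. The means were 3.62 ± 0.393 FPKM in the TAC + EMPA group (SD, n = 4) and 7.83 ± 1.16 FPKM in the TAC group (SD, n = 3), a ratio of 0.462. On the log2(FPKM + 1) scale, which understates the change of low genes, the difference was -0.93 (SE 0.12), and it was -0.90 without TAC replicate 3.

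The whole fragments behind Cd248 could be read from its FPKM with the table's exon length of 2560 bases. They numbered 376, 247, 204 and 210 in TAC + EMPA replicates 1 to 4, against 949, 315 and 441 in TAC replicates 1 to 3. The counting error was 5.16% to 7.0% of the level in TAC + EMPA libraries and 3.25% to 5.63% in TAC libraries. The highest upper bound of an exact Poisson 95% interval was 4.68 FPKM among TAC + EMPA libraries (replicate 2), below the lowest lower bound among TAC libraries, 5.85 FPKM (replicate 2). Since Cd248 was picked from this contrast and for its small spread, the gap between the intervals of the groups is a description only. These intervals cover counting error only and leave out the variation between mice. Amplified copies of one molecule are not independent, so the intervals can also be too narrow for the counting error.

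**Figure D1:**
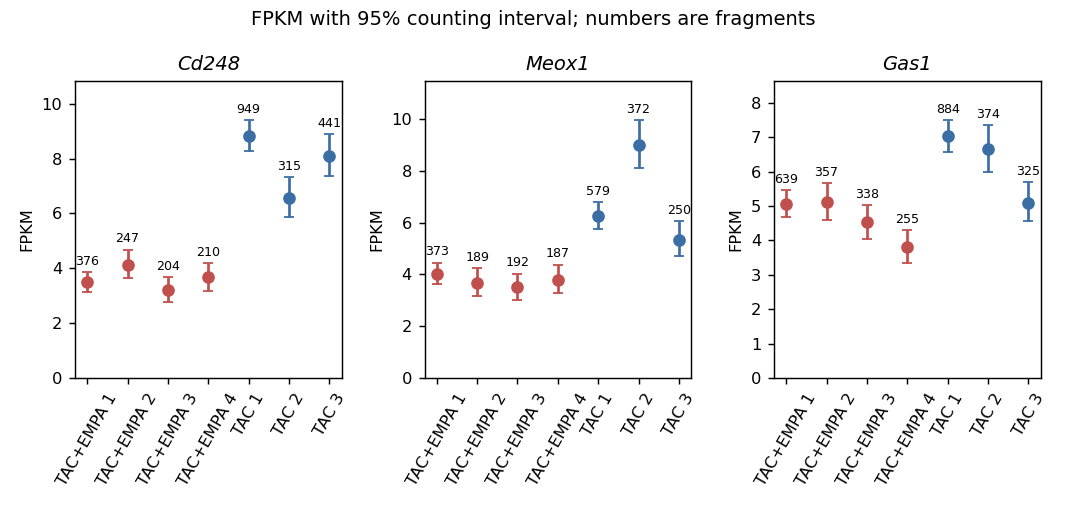
FPKM (vertical axis) of Cd248, Meox1 and Gas1 in each library (horizontal axis), the 3 members whose fragments could be read as whole numbers. Bars are exact Poisson 95% intervals and the number over each point is its fragments. The Cd248 intervals of the 4 TAC + EMPA libraries end at or below 4.68 FPKM and those of the 3 TAC libraries start at or above 5.85 FPKM, while the Gas1 interval of TAC replicate 3 lies among those of the TAC + EMPA libraries.

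The spread of Cd248 within groups was small but not the smallest. Its coefficient of variation was 10.9% in the TAC + EMPA group and 14.8% in the TAC group. Its pooled SD on the log2(FPKM + 1) scale was 0.155, against a median of 0.203 over the genes tested, and 33.4% of these genes had a smaller one. Pdgfra, Tcf21 and Ddr2 varied less, with 13%, 18.0% and 25.7% of genes below them, and Fap and Dpep1 varied most among the members, with 72.4% and 75%.

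Cd248 also kept its TAC level in TAC replicate 3. Since it was picked for a small spread within groups, which favours such a level, the positions below are a description only. Placing the TAC + EMPA mean at 0% and the mean of TAC replicates 1 and 2 at 100%, TAC replicate 3 stood at 110% for Cd248 and at 92.6% for Ddr2. It stood at 50.0% for Thy1, 40.9% for Meox1, 38.8% for Tcf21 and 21.5% for Gas1. Against TAC replicate 3 alone, the TAC + EMPA mean was 0.447 of its level for Cd248, 0.702 for Meox1, 0.735 for Thy1, 0.788 for Ddr2, 0.856 for Tcf21, 0.907 for Gas1 and 1.08 for Fap.

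**Figure D2:**
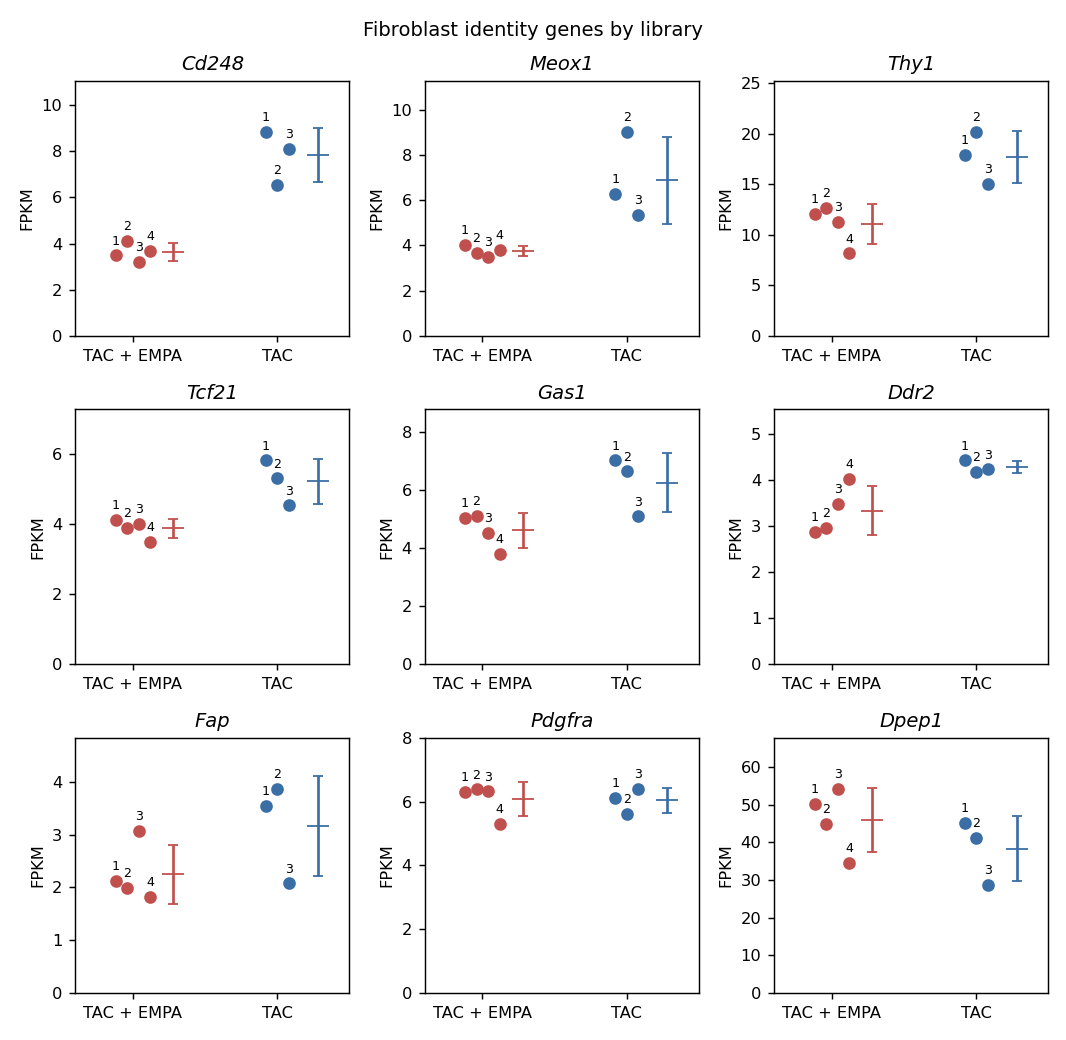
FPKM (vertical axes, from 0) of the 9 genes in each library of the TAC + EMPA group (left in each panel) and the TAC group (right), with the replicate number over each point and the mean ± SD beside the points. The groups are apart for Cd248, Meox1, Thy1, Tcf21 and Ddr2, and they overlap for Gas1, Fap, Pdgfra and Dpep1.

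The 2 transcription factors were both lower in the TAC + EMPA group. Meox1, a homeobox factor (chr11:101877510-101894374, minus strand), had 4.03, 3.68, 3.50 and 3.80 FPKM in TAC + EMPA replicates 1 to 4, against 6.27, 9.01 and 5.34 FPKM in TAC replicates 1 to 3. The groups did not overlap, and the TAC libraries were spread more widely, with a coefficient of variation of 5.88% in the TAC + EMPA group and 27.8% in the TAC group. The ratio of the means was 0.546 and the log2 difference was -0.70 (SE 0.16), or -0.85 without TAC replicate 3. Behind the levels were 187 to 373 fragments in TAC + EMPA libraries and 250 to 579 in TAC libraries.

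Tcf21 is a basic helix-loop-helix factor that the mouse embryo needs to form cardiac fibroblasts. It had 4.13, 3.89, 4.01 and 3.50 FPKM in TAC + EMPA replicates 1 to 4, against 5.82, 5.31 and 4.54 FPKM in TAC replicates 1 to 3. The lowest TAC library, replicate 3, was still above the highest TAC + EMPA library. The ratio was 0.744 and the log2 difference -0.35 (SE 0.10), or -0.43 without TAC replicate 3. The gene (chr10:22817281-22820174, minus strand) overlaps the annotated Gm10824, and whether the counting used strand is not given in the sources used here, so their fragments cannot be separated with certainty. The same limit holds for Ddr2, Gas1, Meox1 and Pdgfra, each of which overlaps at least 1 annotated gene.

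Both receptors are tyrosine kinases, and they differed from each other. Ddr2, a receptor for fibrillar collagen (chr1:169972307-170110762, minus strand), had 2.88, 2.97, 3.48 and 4.02 FPKM in TAC + EMPA replicates 1 to 4, against 4.43, 4.18 and 4.23 FPKM in TAC replicates 1 to 3. The groups did not overlap, although TAC + EMPA replicate 4 came close to the TAC libraries. The means were 3.34 ± 0.529 FPKM (SD, n = 4) and 4.28 ± 0.131 FPKM (SD, n = 3) in the TAC + EMPA and TAC groups, a log2 difference of -0.29 (SE 0.11), or -0.30 without TAC replicate 3.

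Pdgfra, the alpha receptor for platelet-derived growth factors and the gene most often used to find cardiac fibroblasts (chr5:75152292-75198215, plus strand), had nearly equal means in both groups. It had 6.32, 6.39, 6.33 and 5.30 FPKM in TAC + EMPA replicates 1 to 4, against 6.13, 5.62 and 6.40 FPKM in TAC replicates 1 to 3. The groups overlapped almost fully, and TAC + EMPA replicate 4 was the lowest library. The log2 difference was 0.01 (SE 0.10), or 0.04 without TAC replicate 3, and its sign was kept in 7 of 14 alternative analyses, which ran from -0.16 to 0.06. Those with other filters are among the 14 but cannot change the difference of a gene. The lowest value of the 14, -0.16, was the fit corrected for transcript length, which also moved Ddr2 to -0.48. Over all genes, the median log2 difference was -0.16 for genes with transcripts of 66 to 1909 bases and 0.16 for those of 4636 to 106824 bases. Pdgfra and Ddr2 have the longest transcripts of the members (6834 and 8590 bases), Thy1 and Tcf21 the shortest (1735 and 1788 bases), and the part of transcript length in the differences was not tested.

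Thy1 and Gas1 are surface proteins held by a lipid anchor. Thy1, an immunoglobulin-like glycoprotein (chr9:44043384-44048579, plus strand), had 12.1, 12.7, 11.3 and 8.17 FPKM in TAC + EMPA replicates 1 to 4, against 18.0, 20.2 and 15.1 FPKM in TAC replicates 1 to 3. The groups were apart, with a ratio of 0.624 and a log2 difference of -0.64 (SE 0.17), or -0.75 without TAC replicate 3. Thy1 also marks T cells and neurons, and the T cell markers were at the low sums given above.

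Gas1, a coreceptor for hedgehog proteins (chr13:60174405-60177365, minus strand), had 5.06, 5.11, 4.52 and 3.80 FPKM in TAC + EMPA replicates 1 to 4, against 7.03, 6.65 and 5.10 FPKM in TAC replicates 1 to 3. The groups touched only where TAC + EMPA replicate 2 (5.11 FPKM, 357 fragments) met TAC replicate 3 (5.10 FPKM, 325 fragments). The log2 difference was -0.37 (SE 0.14), or -0.49 without TAC replicate 3.

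The last 2 members are membrane-bound enzymes, and neither separated the groups. Fap, fibroblast activation protein, a serine protease of activated fibroblasts (chr2:62500943-62574075, minus strand), had 2.12, 1.99, 3.07 and 1.81 FPKM in TAC + EMPA replicates 1 to 4, against 3.54, 3.87 and 2.08 FPKM in TAC replicates 1 to 3. TAC replicate 3 lay among the TAC + EMPA libraries, and the log2 difference of -0.34 (SE 0.20) was -0.55 without it. Fap was the lowest member in both groups.

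Dpep1, a dipeptidase that cleaves leukotriene D4 (chr8:123186242-123201812, plus strand), was the only member with a clearly positive difference. It had 50.2, 44.8, 54.1 and 34.6 FPKM in TAC + EMPA replicates 1 to 4, against 45.2, 41.2 and 28.6 FPKM in TAC replicates 1 to 3. The groups overlapped, and the log2 difference of 0.26 (SE 0.21) was 0.07 without TAC replicate 3, the lowest library. The table lists Dpep1 in a merged locus of 210 genes, itself included, which holds the overlapping Gm20388, so this level is less certain than the others.

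Taking the 9 genes as a set, 5 were lower in the TAC + EMPA group without overlap (Cd248, Meox1, Thy1, Tcf21 and Ddr2) and 0 were higher without overlap. Over all 12391 genes tested, 10.7% were lower and 11.5% higher without overlap. The log2 difference was negative for 7 of the 9, against 46.8% of all genes. Since the contrast chose the members, nothing is read from these shares. The median log2 difference was -0.35 over the members and 0.03 over all genes, and over the members it was -0.49 without TAC replicate 3 and -0.18 against that library alone. Without TAC replicate 3, Gas1 and Fap were lower without overlap as well, which made 7 of 9, beside 30.4% of all genes lower and 36.5% higher. In limma, 0 of all genes tested passed an adjusted p of 0.05 in either direction, with 1827 lower (14.7%) and 2349 higher (19.0%) at an unadjusted p under 0.05. Without TAC replicate 3, 2930 genes (23.6%) were lower and 3694 (29.8%) higher past the adjusted threshold.

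The geometric mean of the 9 levels was 5.75, 5.72, 5.88 and 5.02 FPKM in TAC + EMPA replicates 1 to 4, against 8.25, 8.14 and 6.62 FPKM in TAC replicates 1 to 3. The 3 TAC libraries stayed above the 4 TAC + EMPA libraries, with TAC replicate 3 nearest to them. Measured gene by gene, TAC replicate 3 was closer to the average of the 4 TAC + EMPA libraries than to that of TAC replicates 1 and 2 for 6 of the 9 members (66.7%), against 76.7% of all genes tested. The members for which it was not were Cd248, Ddr2 and Dpep1.

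The order of levels within a group also differed. In the TAC + EMPA group, Dpep1 was highest by mean FPKM, followed by Thy1 and Pdgfra, whose ranges were apart. Gas1, Tcf21, Meox1, Cd248, Ddr2 and Fap came next, and each overlapped its neighbour. In the TAC group, Dpep1 and Thy1 again led, and Cd248 came next, followed by Meox1, Gas1, Pdgfra and Tcf21, with neighbours that overlapped, then Ddr2 and Fap, each apart from the gene above it. Cd248 thus ranked 7 of 9 in the TAC + EMPA group and 3 of 9 in the TAC group.

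Ratios of 2 genes within 1 library do not depend on its depth. The ratio of Cd248 to Pdgfra in FPKM was 0.552, 0.647, 0.505 and 0.691 in TAC + EMPA replicates 1 to 4, against 1.44, 1.17 and 1.26 in TAC replicates 1 to 3. Cd248 was below Pdgfra in every TAC + EMPA library and above it in every TAC library. The log2 difference of this ratio was -1.11, or -1.13 without TAC replicate 3, and it ran from -1.19 to -1.03 with each library left out. Set against decorin (Dcn), an abundant matrix proteoglycan of fibroblasts, Cd248 gave 0.00994, 0.0128, 0.00914 and 0.0128 in TAC + EMPA replicates 1 to 4, against 0.0256, 0.0179 and 0.0269 in TAC replicates 1 to 3. Against Col1a2, a chain of type I collagen, it gave 0.0941 to 0.130 in TAC + EMPA libraries and 0.171 to 0.247 in TAC libraries. Both ratios kept the groups apart, with log2 differences of -1.07 (Dcn) and -0.83 (Col1a2), or -0.96 and -0.82 without TAC replicate 3. Cd248 was picked from this contrast, and the genes it was set against differed less (Pdgfra 0.01, Dcn -0.04, Col1a2 -0.27). The 3 ratios therefore largely restate the difference of Cd248 and are a description only.

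**Figure D3:**
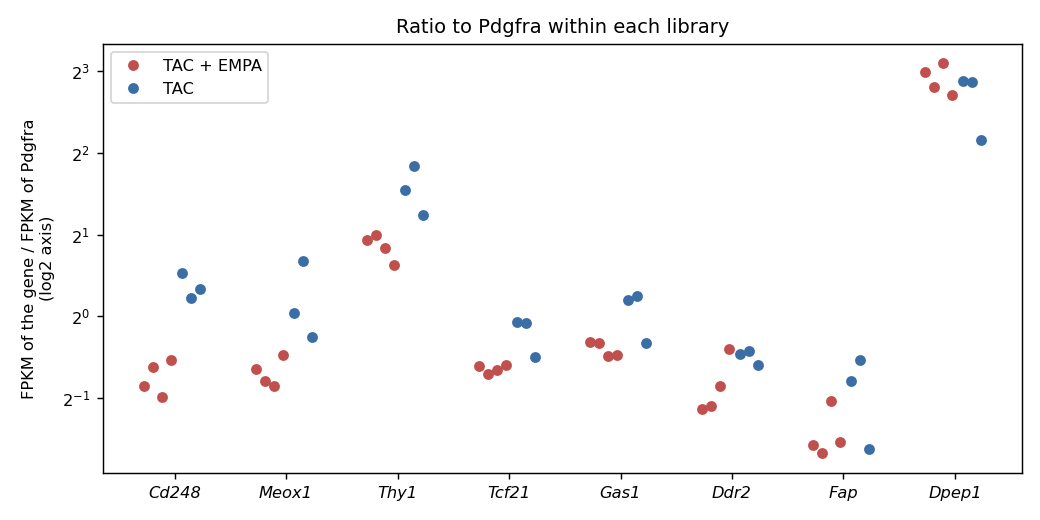
Ratio of the FPKM of each other member to that of Pdgfra in the same library (vertical axis, log2 scale), 1 point per library, TAC + EMPA left of TAC for each gene. The groups are apart for Cd248, Meox1, Thy1 and Tcf21, and they overlap for Gas1, Ddr2, Fap and Dpep1.

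Relative to Pdgfra, Meox1 differed by -0.85, Thy1 by -0.70 and Tcf21 by -0.43 on the log2 scale, with groups that did not overlap. Gas1 (-0.44), Ddr2 (-0.38), Fap (-0.48) and Dpep1 (0.26) overlapped. The part of transcript length in these ratios was not tested. In the fit corrected for transcript length, the log2 difference of FPKM + 1 was -0.16 for Pdgfra and -0.29 for Tcf21. In that fit it was -0.58 for Thy1, -0.69 for Meox1 and -0.96 for Cd248. The ratio of Pdgfra to Dcn was 0.0180 to 0.0198 in TAC + EMPA libraries and 0.0154 to 0.0213 in TAC libraries, with a log2 difference of 0.05.

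The profiles of the members over the 7 libraries were compared by the root mean square difference of their centred log2(FPKM + 1) values, in which a small value means alike. Tcf21 and Gas1 were closest at 0.0769, followed by Thy1 and Gas1 at 0.167 and Tcf21 and Ddr2 at 0.177. Cd248 was farthest from Dpep1 (0.668) and from Pdgfra (0.481). Among all genes tested, the 5 nearest to Cd248 were Gm22009 (0.143), Col5a1 (0.158), Lrrn4cl (0.162), Fbn1 (0.164) and Plekha4 (0.179). Col5a1 encodes a chain of type V collagen and Fbn1 encodes fibrillin, a protein of extracellular microfibrils. Fbn1 had 6.42, 6.61, 4.91 and 6.35 FPKM in TAC + EMPA replicates 1 to 4, against 10.1, 9.53 and 12.5 FPKM in TAC replicates 1 to 3. As for Cd248, TAC replicate 3 lay with the other TAC libraries, which follows from the measure of likeness. The 5 nearest to Pdgfra were Trabd (0.0321), Tsc22d4 (0.0383), Hsbp1 (0.0403), Tpm1 (0.0408) and Mrpl12 (0.0415), and their log2 differences lay between 0.01 and 0.08.

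The families and partners of the members came next, a list of 21 genes, of which 16 reached the minimum level. In limma 0 of the 16 passed in either direction (adjusted p of 0.115 or more), 6 were lower and 0 higher at an unadjusted p under 0.05, and 7 were lower and 0 higher without overlap. Of all genes tested, 14.7% were lower and 19.0% higher at that p, and 10.7% were lower and 11.5% higher without overlap. The median log2 difference of the 16 was -0.30, against 0.03 over all genes. It was -0.38 without TAC replicate 3, where 8 passed as lower and 2 as higher, beside 23.6% and 29.8% of all genes. Cd93 and Clec14a, relatives of Cd248 known from endothelial cells, and Mmrn2, a matrix protein that all 3 bind, were among the 7 lower without overlap. Thbd, another relative of Cd248, differed by -0.59 (SE 0.30) with overlap. Its level in TAC replicate 3 (15.1 FPKM) was below every TAC + EMPA library (16.7 to 19.2 FPKM). Clec14a averaged 4.78 ± 0.253 FPKM in the TAC + EMPA group (SD, n = 4) and 8.31 ± 2.00 FPKM in the TAC group (SD, n = 3). Mmrn2 averaged 12.9 ± 0.675 and 19.4 ± 4.12 FPKM in the same groups, a log2 difference of -0.54.

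Meox2, the other Meox factor, had 5.16, 4.83, 4.04 and 4.62 FPKM in TAC + EMPA replicates 1 to 4, against 7.36, 7.30 and 5.90 FPKM in TAC replicates 1 to 3, which is a log2 difference of -0.47 (SE 0.11) without overlap. Tcf3, a partner with which TCF21 forms dimers, was lower without overlap (log2 difference -0.49), and Tcf12, another such partner, differed by -0.01. Among the ligands of PDGF receptors, Pdgfb differed by -0.77 without overlap, while Pdgfa (0.23) and Pdgfd (-0.34) overlapped. For Pdgfb, TAC replicate 3 (12.2 FPKM) was just above the highest TAC + EMPA library (12.0 FPKM). TAC replicates 1 and 2 had 23.0 and 26.6 FPKM of Pdgfb. The beta receptor Pdgfrb averaged 13.9 ± 0.542 FPKM in the TAC + EMPA group (SD, n = 4) and 15.3 ± 1.44 FPKM in the TAC group (SD, n = 3), with overlap. Ddr1, the other discoidin domain receptor, differed by 0.46 with overlap, in the direction opposite to Ddr2. Of the hedgehog components that act with Gas1, Smo (-0.18) was lower without overlap, and Ptch1 (-0.27) and Boc (-0.13) overlapped. Pdgfc, Dpp4, Dpep2, Cdon and Gli1 had mean levels of 0.609 to 0.862 FPKM, under the minimum.

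A wider list of 25 fibroblast markers, of which 24 reached the minimum level, held 0 genes that passed in limma in either direction (adjusted p of 0.115 or more), with 11 lower and 0 higher at an unadjusted p under 0.05. Of all genes tested, 14.7% were lower and 19.0% higher at that p. Without TAC replicate 3, 13 passed as lower and 0 as higher, beside 23.6% and 29.8% of all genes. The log2 difference was negative for all 24, against 46.8% of all genes. Without overlap, 10 were lower and 0 higher, against 10.7% and 11.5% of all genes. The median was -0.48, or -0.62 without TAC replicate 3 and -0.30 against that library alone. The FPKM of the 25 summed to 1761 to 2182 in TAC + EMPA libraries and 2183 to 3303 in TAC libraries. The genes of smallest p were Cd34, Col15a1, Pcolce and Dpt. Cd34, a surface sialomucin that endothelial cells make too, averaged 62.2 ± 2.73 FPKM in the TAC + EMPA group (SD, n = 4) and 101 ± 15.3 FPKM in the TAC group (SD, n = 3). Pcolce, an enhancer of procollagen processing, differed by -0.94, Dpt (dermatopontin) by -0.66 and Col15a1 by -0.60. Dcn (-0.04) and Fbln1 (-0.03), picked here after their values were seen, had differences near 0, like Pdgfra.

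**Figure D4:**
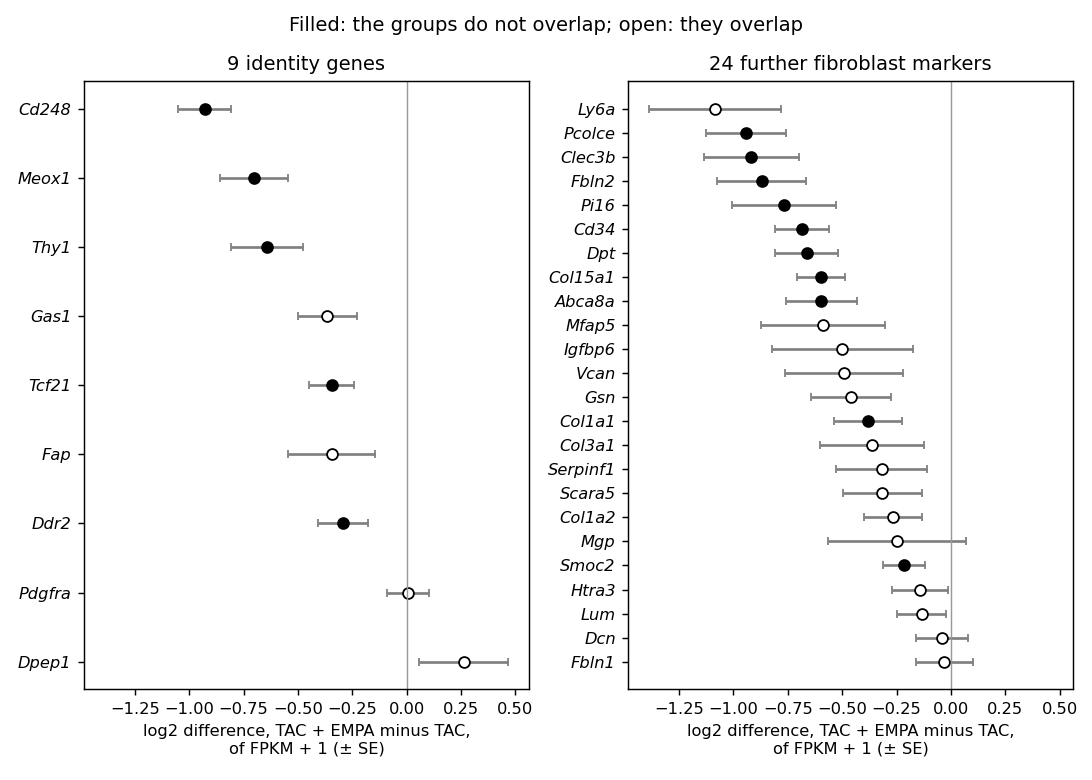
Log2 difference of FPKM + 1, TAC + EMPA minus TAC (horizontal axis), with its standard error, for the 9 members (left) and the 24 further fibroblast markers tested (right), each sorted by value. Filled points are genes whose groups do not overlap. Members run from -0.93 (Cd248) to 0.26 (Dpep1), and the 24 markers are all below 0.

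Genes of activated fibroblasts and myofibroblasts were less uniform. Of 23 symbols, 22 were found and 18 reached the minimum level, 0 passed in limma in either direction (adjusted p of 0.115 or more), with 2 lower and 1 higher at an unadjusted p under 0.05, and 2 were lower and 0 higher without overlap. Over all genes tested, 14.7% were lower and 19.0% higher at that p, and 10.7% were lower and 11.5% higher without overlap. The 2 lower genes thus do not set this list apart from all genes. Without TAC replicate 3, 4 passed as lower and 0 as higher, beside 23.6% and 29.8% of all genes. Ccn2 and Ctgf name 1 gene, found as Ctgf. The median log2 difference was -0.16, and it was -0.33 without TAC replicate 3 and 0.16 against that library alone. The 2 lower without overlap were Col5a1 (-0.65) and Fstl1 (-0.76), a secreted glycoprotein, which averaged 33.5 ± 5.70 FPKM in the TAC + EMPA group (SD, n = 4) and 56.9 ± 4.44 FPKM in the TAC group (SD, n = 3). Lox, which crosslinks collagen, and Comp, a cartilage matrix protein, differed by 0.48 and 0.89 with overlap.

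Markers of other cell types moved along with the members in part. All 14 endothelial markers had a negative log2 difference, with a median of -0.70, or -0.98 without TAC replicate 3 and -0.08 against that library alone. Their FPKM summed to 1401 to 1641 in TAC + EMPA libraries and 1677 to 3778 in TAC libraries. Fabp4 alone made up most of these sums, at 733 to 946 FPKM in TAC + EMPA libraries and 989 to 2158 FPKM in TAC libraries. The 13 pericyte and smooth muscle markers had a median of -0.24 (10 negative), or -0.34 without TAC replicate 3 and -0.10 against that library alone, with sums of 313 to 359 FPKM in TAC + EMPA libraries and 354 to 421 FPKM in TAC libraries. Mcam (-0.77), Vtn (-0.71), Cspg4 (-0.38) and Kcnj8 (-0.33) were lower without overlap. Abcc9, a subunit of a potassium channel that heart muscle also makes, was higher without overlap (0.77), at 41.1 ± 3.35 FPKM in the TAC + EMPA group (SD, n = 4) and 25.2 ± 12.0 FPKM in the TAC group (SD, n = 3). For Abcc9, TAC replicate 3 (39.05 FPKM) was just below the lowest TAC + EMPA library (39.14 FPKM). TAC replicates 1 and 2 had 19.4 and 17.3 FPKM of Abcc9. TAC replicate 3 had 21.2 FPKM of Mcam, against 23.4 and 24.0 FPKM in the other TAC libraries. The part of these cell types in the levels of Cd248 and Thy1 was not tested.

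The 10 macrophage markers had a median of -0.22 (sums of 252 to 294 FPKM in TAC + EMPA libraries and 265 to 388 FPKM in TAC libraries). Adgre1 (0.36) and Cd163 (0.24) were higher without overlap and C1qc (-0.51) was lower without overlap, and C1qb (-0.42) overlapped. The macrophage median was -0.31 without TAC replicate 3 and 0.08 against that library alone. The 10 cardiomyocyte markers (5 negative, 5 positive) had a median of 0.04, or 0.0002 without TAC replicate 3 and 0.32 after quantile normalization. Ryr2, the calcium release channel (1.53), and Ttn, titin (0.57), were higher without overlap. Pln, phospholamban (0.43), and Tnni3, cardiac troponin I (-0.29, named after its value was seen), overlapped. Of 9 epicardial markers only Wt1 (-0.59) and Aldh1a2 (-0.32) reached the minimum level. In these lists of other cell types, 0 genes passed in limma with all libraries. Without TAC replicate 3, all 14 endothelial markers passed as lower, 7 pericyte and smooth muscle markers passed as lower and 1 as higher, 4 macrophage markers as lower and 1 as higher, 2 epicardial markers as lower and 0 as higher, and 4 cardiomyocyte markers as higher and 1 as lower. At an unadjusted p under 0.05, 11 endothelial markers were lower and 0 higher, 5 pericyte and smooth muscle markers were lower and 1 higher, 2 macrophage markers were lower and 1 higher, 1 epicardial marker was lower and 0 higher, and 3 cardiomyocyte markers were higher and 0 lower. Of all genes tested, 14.7% were lower and 19.0% higher at that p. Without TAC replicate 3, 23.6% of all genes passed as lower and 29.8% as higher.

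**Figure D5:**
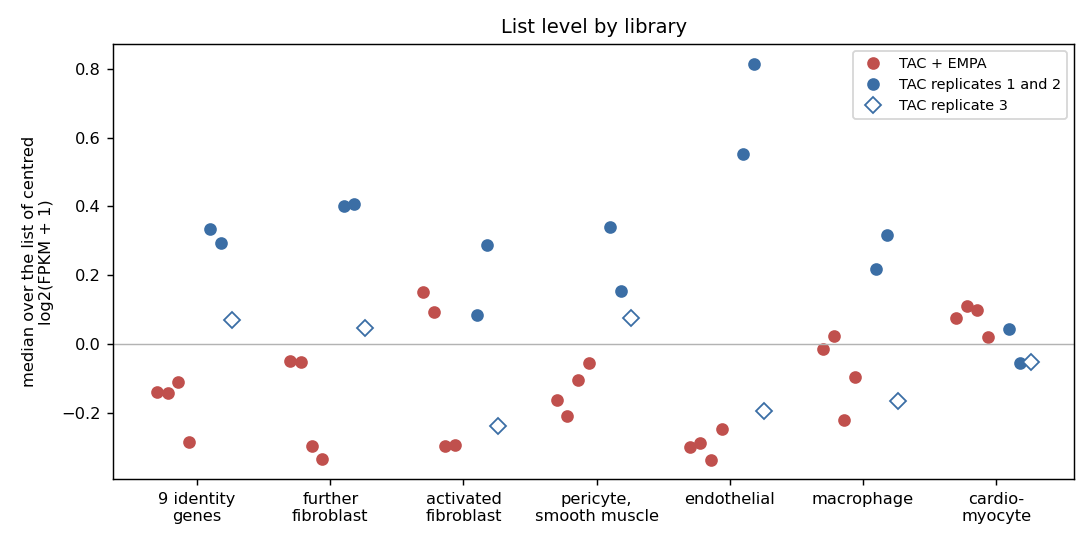
Median over each list of the log2(FPKM + 1) of its genes, centred on each gene's mean over the 7 libraries (vertical axis), for each library, TAC + EMPA left of TAC, with TAC replicate 3 as an open diamond. For the 9 members TAC replicate 3 (0.07) lies between the TAC + EMPA libraries (-0.29 to -0.11) and the other TAC libraries (0.29 and 0.33), and for the endothelial markers it lies at -0.20, near the TAC + EMPA libraries (-0.34 to -0.25).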

How the data were processed

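RNA was extracted from heart tissue, and libraries of polyadenylated RNA were made with a stranded kit. Per the submitters' notes, the authors aligned reads to GRCm38 (mm10) with TopHat2 2.0.13, and the deposited FPKM of each gene in each library are those of Cuffdiff (Cufflinks 2.2.1). The table also holds the authors' group means, fold changes and p-values, and other deposited tables hold enriched terms. These columns and tables were not used. The members and lists were chosen with earlier results of these data known. Groups and replicate numbers came from the sample titles.

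Genes averaging at least 1 FPKM entered the fit as log2(FPKM + 1). TAC + EMPA was compared with TAC in limma 3.58.1 (R 4.3.3) by a two-sided moderated test with a trended variance prior, Benjamini-Hochberg adjustment over the genes tested and 0.05 as the threshold. Only the spread between these libraries enters its p-values. The fit was tested on simulated data. For the members, levels, differences and overlap are given without p. For each list, the genes named are up to 4 of smallest p and those that share a family, ligand or receptor with a member, besides the 5 genes nearest to Cd248 and to Pdgfra.

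Fragments were read from FPKM times transcript length less 204 bases in single-exon genes of at least 800 bases. In each library 100% of the 517 to 614 low values read were within 0.1 of a whole number. For Cd248, Meox1 and Gas1 the values were whole in all 7 libraries. The other 6 members did not come out whole, so no count model was fitted. Positions come from GENCODE M21. Alternatives were another pseudocount, other filters, centring on medians, quantile normalization, a block for the replicate number and each library left out. A correction for transcript length (loess) and the removal of Dpep1 were added after seeing the data. Python 3.11.15, pandas 2.3.3, scipy 1.17.1 and matplotlib 3.10.9 were used. The result of 1 marker list is not reported here.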

Additional observations from a re-analysis of the deposited data

Results flagged for a closer look

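Among the 9 members, the gene lists and the ratios within a library, 31 sets of values of the TAC + EMPA libraries were examined for a library far from the others. The TAC libraries were not examined in this way. In all, 2 were found, against 1.55 that chance would give at 1 in 20 if the sets were independent. They are not, since the ratios share genes with the members. The T cell list, with 0 genes at the minimum level, is counted but had no level to examine. Pdgfra was 5.30 FPKM in TAC + EMPA replicate 4, against 6.32 to 6.39 FPKM in the other 3 libraries of that group, and this gap was 0.939 of the range of the group. The level of the hepatocyte markers was highest in the same library, with a gap of 0.931 of the range. Albumin (Alb), for example, was 26.1 FPKM there and 0.121 to 0.409 FPKM in the other TAC + EMPA libraries. These 7 markers summed to 32.0 to 114 FPKM in TAC + EMPA libraries and 34.3 to 73.1 FPKM in TAC libraries, and 0 of the 5 tested passed in limma in either direction (0 also at an unadjusted p under 0.05). Without TAC + EMPA replicate 4, the log2 difference of Cd248 was -0.94 (-0.93 with it). Other members moved more: Thy1 to -0.51 (from -0.64), Gas1 to -0.29 (from -0.37), Dpep1 to 0.39 (from 0.26) and Ddr2 to -0.36 (from -0.29). The median of the members moved to -0.31 (from -0.35) and that of the further fibroblast markers to -0.38 (from -0.48).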

How the results depend on the processing

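The sign of the log2 difference was kept in every alternative run for 8 of the 9 members, and Pdgfra kept its sign in 7 of 14. Not all of these runs test the sign. The other filters cannot change the difference of a gene, and the block repeats the differences without TAC + EMPA replicate 4. For Cd248 the alternatives ran from -1.09 (pseudocount of 0.1) to -0.85. With no filter on low values, 2 genes passed as lower and 0 as higher among 27201. With each library left out in turn, 0 to 3694 genes passed as higher and 0 to 2930 as lower. The upper ends came without TAC replicate 3, and the other libraries left out gave at most 2 higher (without TAC + EMPA replicate 2) and 4 lower (without TAC replicate 1). With a minimum mean FPKM of 5, 3 members were lower without overlap, beside 833 of all 7806 genes left. Tcf21, Ddr2 and Fap fall under this minimum, and the median of the members left was -0.50. With each library left out, the number of members lower without overlap was 5 to 7 and their median -0.49 to -0.28. The upper number and the lower median came without TAC replicate 3. Over all 12391 genes, 1481 to 3770 were lower without overlap in these fits, the most again without TAC replicate 3. The deviations of same-numbered libraries had correlations of 0.10, 0.08 and -0.03 for numbers 1 to 3, against -0.17 to 0.06 for unlike numbers. Those of numbers 1 and 2 were thus the largest, though small. Replicate 1 of each group also had a relative depth of 2.24, with the other libraries at 1 to 1.33. The numbers were not read as pairs, and a batch shared by number was not tested. With the replicate number as a block, 0 genes passed as higher and 0 as lower (1839 and 1314 at an unadjusted p under 0.05). The median of the members was -0.31. Number 4 occurs only in the TAC + EMPA group, so this fit gives the same differences as leaving out TAC + EMPA replicate 4. Overlap was read without the block, so the 5 members lower without overlap could not change. Fragments could be read for 3 members only, so the counting error of the other 6 is unknown, and the 3 libraries of the TAC group limit every comparison.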
